A study of Mus musculus with 24 samples.

Results

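The entorhinal excitatory neurons of this data set are the nuclei of ventral hippocampus that carry the label Exc-ENT in the deposited tables. They were chosen by that label alone, as the 4 Exc-ENT columns of a table of RNA counts and the 4 columns of the same name in a table of open chromatin counts. They made up 1997 of 30880 nuclei (6.47%) in the RNA libraries and 2169 of 27206 nuclei (7.97%) in the chromatin libraries. Among the 8 excitatory types they ranked the 4th by number of nuclei in RNA and the 5th in chromatin. All mice were adult males of 10 to 16 weeks, with no treatment named, of the inbred strains C57BL/6J (labelled B6) and DBA/2J (labelled DBA, here D2). Each strain had 2 libraries for single-nucleus RNA sequencing (snRNA-seq) and 2 for single-nucleus sequencing of transposase-accessible chromatin (snATAC-seq). Tissue of about 2 animals was pooled into each library, so a library is a pool and not an animal. The RNA nuclei were sorted for NeuN, an antigen of neuronal nuclei, to enrich neurons, and the chromatin nuclei were not.

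The entorhinal cortex adjoins the hippocampus and is the main gateway between it and the neocortex. Excitatory cells of its superficial layers project to the dentate gyrus and the hippocampal fields, and cells of its deep layers receive hippocampal output and pass it on. Reelin and calbindin mark classes of superficial entorhinal cells, whereas transcription factors such as Tbr1, Foxp2 and Tle4 mark deep cortical cells that include the corticothalamic class. Glutamatergic cells of cortex and hippocampus load vesicles with VGLUT1, the product of Slc17a7.

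The share of Exc-ENT nuclei was even over the RNA libraries, at 6.65% and 6.27% in B6 and 6.87% and 5.94% in D2. In chromatin it was 6.42% and 9.71% in B6 and 8.66% and 7.68% in D2, so the strains overlapped in both assays. With 2 libraries a strain the smallest p of an exact permutation test is 0.33, and these shares were not tested. The Exc-ENT columns held 3201450 to 4735960 RNA counts and 5020155 to 8380239 ATAC counts a library. The libraries of a strain correlated across transcripts on a log scale at r = 0.989 in B6 and 0.986 in D2, against 0.925 to 0.939 between strains. Levels are given as CPM, counts per 1000000, over the symbols or peaks counted in both strains, and the libraries are given in the order B6 library 2, B6 library 3, D2 library 2 and D2 library 3. Other cell types were summed over the libraries of a strain, so they have 1 value a strain and no error.

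The label was set against marker lists. Slc17a7 stood at 309.8, 309.7, 289.7 and 353 CPM in the 4 libraries, within the 188 to 416 CPM of the other excitatory types. Camk2a, a kinase subunit of excitatory neurons, was at 384 to 456 CPM and below all the others, which lay between 604 and 1148 CPM. Of the 9 entorhinal and upper-layer cortical markers, 1 was at least 2-fold above every other excitatory type, and the median log2 ratio of the list to the median of the other types was 0.07. That member was Rorb, a nuclear receptor of cortical layer IV. Reln, which encodes reelin, was at 14.1, 13.0, 6.46 and 5.18 CPM, against 71.7 CPM in Exc-CA1-Camk2d of B6. Calb1, which encodes calbindin, was at 1.76 to 4.47 CPM, and Cux2, a homeobox factor of upper cortical layers, at 2.13 to 2.48 CPM against 348 CPM in Exc-Gpc6 of B6.

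Deep-layer cortical markers stood higher in the same libraries. Of 10 members, 5 were at least 2-fold above every other excitatory type in each library (Tle4, Foxp2, Tbr1, Sulf1 and Ccn2). Over the 9 members that reached 10 CPM in an excitatory type, the median log2 ratio to the median of the other excitatory types was 3.28. It was 0.07 over all 11973 symbols that reached 10 CPM in an excitatory type. Tle4, a Groucho-family corepressor, was at 618, 633, 669 and 674 CPM against 178 CPM in the next type, Exc-CA3 of B6. Foxp2, a forkhead factor of layer VI, was at 183, 154, 172 and 180.4 CPM, against 22.9 CPM in Exc-Gpc6 of B6. Tbr1, a T-box factor needed for layer VI identity, was at 29.2, 26.0, 36 and 37.3 CPM. It was at no more than 9.34 CPM in the other excitatory types. Hs3st4, a heparan sulfate sulfotransferase, fell just short of the rule at 2624 to 2719 CPM, with 1262 and 1437 CPM in Exc-CA3. Fezf2 and Bcl11b, factors of layer V output neurons, were not particular to Exc-ENT. Fezf2 stood at 34.1 to 43.4 CPM and at 50.1 and 58.2 CPM in Exc-CA1-Fras1. Bcl11b was at 208 to 279 CPM and at 243 and 293 CPM in Exc-DG. Etv1, another listed member, was at 84.2 to 100.5 CPM, below the 221.5 and 374 CPM of Exc-CA1-Fras1. The last member, Nxph4, was at 0.993 to 4.86 CPM, too low for the rule.

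Reln and Calb1, the markers of superficial entorhinal cells, were thus far below their highest level in another excitatory type. Reln was nonetheless above most of the other excitatory types. Only Exc-CA1-Fras1 and Exc-CA1-Camk2d exceeded it in B6, and in D2 Exc-Cdh12 did as well. The lists held no transcript that separates deep entorhinal cells from deep cells of adjoining cortex. The group is called Exc-ENT here, after its label. Of 4 subiculum markers none was raised, but the median log2 ratio of that list to the median of the other types was 2.08, and Tshz2, a zinc finger homeobox factor, was at 1206 to 1555 CPM against 2755 and 2803 CPM in Exc-Gpc6. The summed dentate gyrus markers came to 6.2 to 8.7 CPM, against 486 and 417 CPM in Exc-DG. The 5 astrocyte markers summed to 21.7 to 31.1 CPM, against 3124 and 3208 CPM in astrocytes, and none of them was at 0 in all 4 libraries. The 5 oligodendrocyte markers summed to 132.5 and 138.0 CPM in B6 and 73.7 and 79.7 CPM in D2, against 13576 and 13123 CPM in oligodendrocytes. The 8 interneuron markers summed to 66.5 to 108 CPM, within the 40.2 to 1286 CPM of the other excitatory types. Adarb2 made up most of the Exc-ENT sums, at 39.5 to 76.35 CPM, and of the upper end, at 1222 CPM in Exc-DG of B6. Gad1, Gad2 and Slc32a1 were at 0.993 to 2.98 CPM in Exc-ENT.

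**Figure D1:**
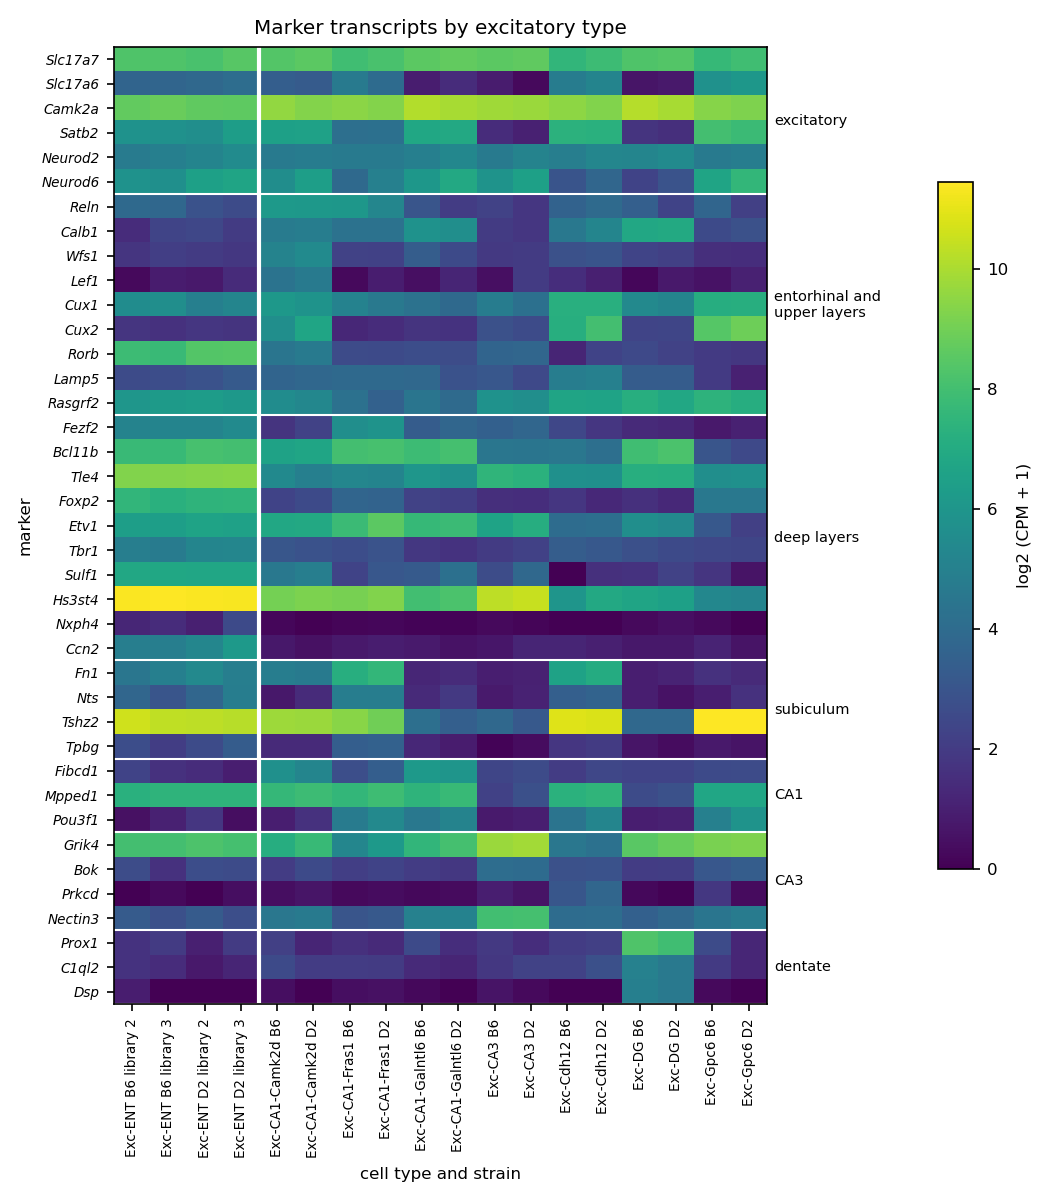
Marker transcripts (rows) in the 4 Exc-ENT libraries and in the other 7 excitatory types of each strain (columns), coloured by log2 of CPM plus 1. Tle4, Foxp2, Sulf1, Hs3st4 and Ccn2 are brightest in the Exc-ENT columns, whereas Cux2 and Calb1 are dark there.

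Which transcripts set Exc-ENT apart from every other excitatory type was described by fold, with no test, because the nuclei had been clustered on these same transcripts. A transcript was called raised when it had at least 10 CPM and at least 2 times the level of the highest other excitatory type of the same strain, after adding 1 CPM, in each of the 4 libraries. Of 8958 symbols at 10 CPM or more in all 4 libraries, 78 were raised (0.871%), and 65 of these were protein coding. The weakest of the 4 ratios was 10 or more for 8 transcripts and 5 or more for 19. At the threshold, Rgs12 was just inside with a weakest ratio of 2.01 and Arap2 just outside with 1.975. The next highest excitatory type in B6 was Exc-CA1-Fras1 for 17 of the 78, Exc-DG for 11 and Exc-CA1-Galntl6 for 2, with 12 each for Exc-CA1-Camk2d, Exc-CA3, Exc-Cdh12 and Exc-Gpc6.

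Sntb1 led the list. It encodes beta-1 syntrophin, an adaptor of the dystrophin complex, and its levels were 193, 176, 182 and 156 CPM. All 4 libraries were far above the 3.14 CPM of Exc-DG in B6 and the 2.48 CPM of Exc-Cdh12 in D2, the highest other values, and the weakest ratio was 42.7. The mean was 184 ± 12.1 CPM in B6 (SD, n = 2). Rai14, an ankyrin-repeat protein of actin structures, was at 175, 176, 196 and 187 CPM against 11.0 CPM in Exc-CA1-Camk2d of B6, with a weakest ratio of 14.7. Arhgap25, a GTPase-activating protein for Rac, was at 34.9, 32.3, 25.8 and 30.8 CPM, and Cobll1, a relative of the actin regulator cordon-bleu, at 179.5 to 221 CPM. Myocd, a coactivator of serum response factor known from muscle, was at 20.1 to 25.6 CPM, at most 2.72 CPM in the other excitatory types of B6.

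Several of the raised transcripts encode adhesion and synaptic proteins. Cntnap4, a neurexin-family adhesion protein, was at 647, 625, 682 and 705 CPM against 56.3 and 53.9 CPM in Exc-CA3. Its lowest library was more than 10 times the highest other type, with a weakest ratio of 10.9. Cdh18, a type II cadherin, was at 1223, 1419, 1046 and 1166 CPM, against 175 CPM in Exc-Cdh12 of B6. Olfm3, an olfactomedin-domain glycoprotein, was at 535, 477, 803 and 751 CPM, and the D2 libraries lay above the B6 libraries. Nxph3, a neurexophilin and so a secreted ligand of alpha-neurexins, was at 35.8, 26.0, 40.0 and 55.4 CPM against 3.78 CPM in Exc-Gpc6 of B6. A second neurexophilin, Nxph1, was raised at 33.0 to 59.6 CPM, as was Cbln2, a cerebellin that bridges neurexins and GluD receptors, at 11.1 to 23 CPM.

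The other coding members of the leading 20 have varied roles. Ccn2, a matricellular protein used as a marker of the deepest cortical sublayer, was at 28.8, 29.1, 37.7 and 70.9 CPM, and no other excitatory type exceeded 1.26 CPM. Col8a1, a collagen chain, was at 32.7, 36.2, 32.0 and 55.7 CPM, and Papln, the matrix protein papilin, at 10.6, 12.3, 21.6 and 19.4 CPM. The strains overlapped for Col8a1 and did not for Papln. Hs3st5, a second heparan sulfate sulfotransferase, was at 171 to 233 CPM against 32.4 CPM in Exc-Cdh12 of B6. Lpar1, a receptor for lysophosphatidic acid, was at 48.6, 59.1, 75.7 and 73.2 CPM. Kcnh8, a voltage-gated potassium channel of the ELK family, was at 63.5, 51.0, 96.8 and 69.0 CPM against 2.13 CPM in Exc-Gpc6 of B6. Atp6ap1l, named for likeness to an accessory subunit of the vacuolar proton pump, was at 19.3 and 21.1 CPM in B6 against 58.3 and 60.2 in D2.

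Rorb, at 229, 219, 338 and 345 CPM, was more than 10 times the 20.7 and 25.5 CPM of Exc-CA1-Camk2d, the next excitatory type. It was nevertheless far below astrocytes, which stood at 1465 CPM in B6 or 1804 in D2. In all, 30 of the 78 raised transcripts had a higher level in a non-neuronal type. Neuronal types outside the excitatory ones, such as inhibitory neurons, were not compared. Among these were Kcnh8, at 346 CPM in oligodendrocyte precursors of both strains, Arhgap25, at 210.0 and 262 CPM in microglia, and Foxp2, at 457 and 484 CPM in vascular and leptomeningeal cells. The summed precursor markers of Exc-ENT were 10.9 to 18.5 CPM against 2358 and 2527 CPM in precursors, and the vascular markers 9.7 to 17.9 CPM against 1685 and 1705 CPM. Their part in these levels was not tested.

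**Figure D2:**
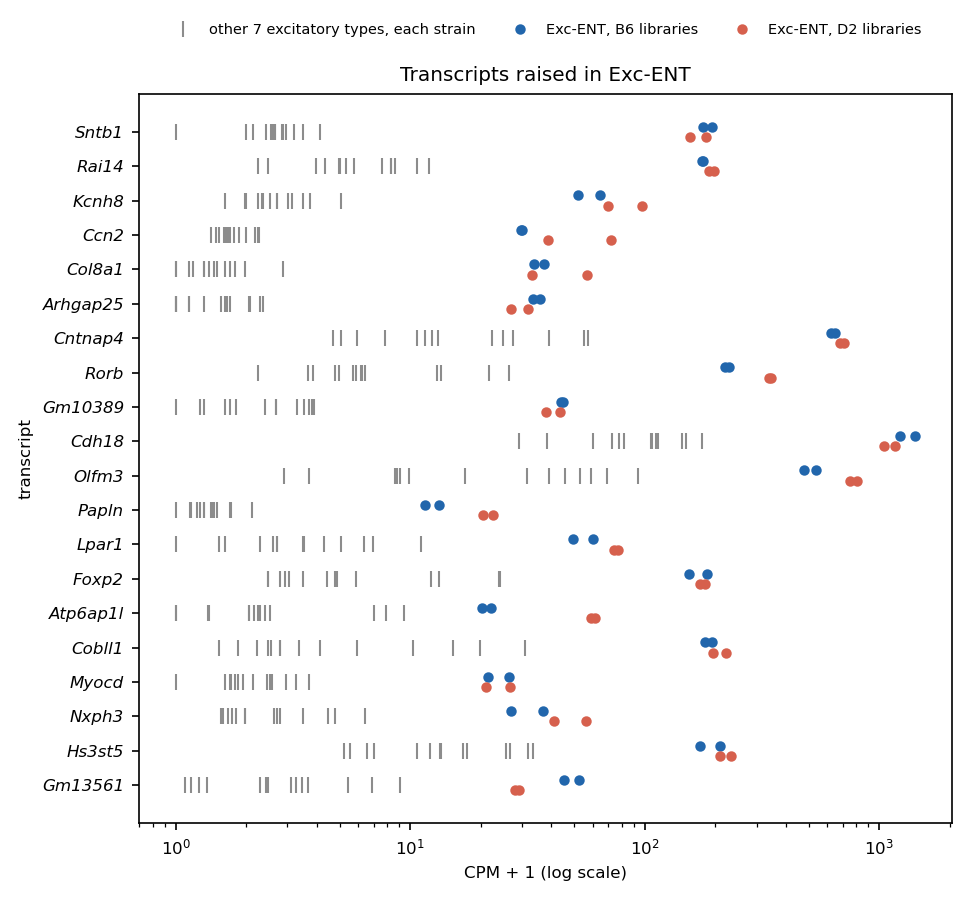
Level of the 20 leading raised transcripts (rows) as CPM plus 1 on a log axis, with a point for each Exc-ENT library and a tick for each other excitatory type and strain. Every Exc-ENT point lies to the right of every tick of its row, as the rule for raised transcripts requires within a strain. The 2 strains are apart for Rorb, Olfm3 and Atp6ap1l.

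Receptors for modulatory transmitters were also present among the raised transcripts, and the following 3 were picked after their values were seen. Htr1f, a serotonin receptor coupled to inhibitory G proteins, was at 465, 432, 464 and 468 CPM against 128 and 148 CPM in the next types. Hcrtr2, the type 2 orexin receptor, was at 66.8, 56.4, 70.3 and 102 CPM against 13.7 CPM in Exc-Cdh12 of B6. Chrna5, the alpha5 nicotinic subunit, was at 35.8, 30.4, 27.3 and 21.7 CPM against 9.15 and 6.17 CPM in the next types.

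By gene group, most members of each list of neuronal genes were neither raised nor lowered. Of 48 transcription factors 4 were raised (Rorb, Tle4, Foxp2 and Tbr1) and none was lowered. Kcnh8 was not on the list of 35 potassium and HCN channel genes, of which 2 were raised: Kcnip1, a channel-interacting protein, at 160 to 204 CPM against 59.4 and 69.3 CPM in Exc-CA1-Fras1, and Kcnmb4, an auxiliary subunit of BK channels, at 124 to 160 CPM. Among 17 ionotropic glutamate receptor genes Grik3, a kainate receptor subunit, was raised at 390 to 443 CPM against 148 and 151 CPM in Exc-Gpc6. Of 16 neuropeptide and neurexophilin genes 2 were raised (Nxph1 and Nxph3), and of 11 activity-induced genes and 7 metabotropic glutamate receptors none was. These lists count members at any level, and of all 24634 symbols counted in both strains 78 were raised. The 0.871% given above is the share of the 8958 symbols at 10 CPM or more in all 4 libraries. Of the 16 neuropeptide and neurexophilin genes 7 reached 10 CPM in an excitatory type.

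The opposite pattern was a transcript that was low in Exc-ENT and present in every other excitatory type. Of 7544 symbols at 10 CPM or more in all the others, 44 (0.583%) were at most 0.5 times the lowest of them in each library, and 31 of these were protein coding. Acp1 was just inside this threshold with a ratio of 0.490 and Pebp4 just outside with 0.510. Ntng2, or netrin-G2, a membrane-anchored ligand of the synaptic adhesion protein NGL-2, was lowest relative to the others. It had 4, 13, 7 and 1 counts, or 0.879, 2.77, 1.74 and 0.324 CPM. The other excitatory types had at least 33.9 CPM in B6 and 45.4 CPM in D2. Ajap1, an adherens junction protein, was at 5.05, 5.10, 2.98 and 3.89 CPM, against at least 43.3 CPM in B6 and 44.9 CPM in D2. Tafa1, a secreted chemokine-like protein, was at 29.4, 29.4, 14.7 and 24.6 CPM against at least 177 and 198 CPM. Rtl4, a retrotransposon-derived gene, was at 18.02 to 27.3 CPM where the lowest other B6 type had 195.5 CPM. Rtn4rl1, a Nogo receptor homologue, was at 5.27 to 7.66 CPM against at least 39.0 CPM in B6.

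Adhesion and guidance genes were spread over both patterns. Cdh8, a type II cadherin, was at 53.4, 53.6, 53.1 and 49.9 CPM where the lowest other B6 type had 270.2 CPM, so that of 23 cadherins and protocadherins Cdh18 was raised and Cdh8 lowered. Of 39 axon guidance genes 1 was raised and 4 were lowered. Sema5b, a transmembrane semaphorin, was raised at 108 and 101 CPM in B6, where Exc-DG had 49.6 CPM, and at 110.5 and 95.2 CPM in D2, where it had 32.6 CPM. Slit3, a secreted repellent, was at 166 to 209 CPM against at least 609 CPM in the other excitatory types, over which the minima below are also taken. The ephrin receptors Epha4 and Epha6 were at 22.8 to 31.1 and 247 to 346 CPM, against at least 75.4 and 853 CPM. Ntng2 was the other. Nlgn1, neuroligin-1 of excitatory synapses, was at 1327, 1325, 1102 and 1099 CPM against at least 2932 CPM. Gabra2, a GABA-A receptor subunit, was at 97.3, 109, 90.9 and 85.8 CPM against at least 224 CPM, the only one of 12 subunits in either group. Cacna2d3, a calcium channel auxiliary subunit, was at 109 to 131 CPM against at least 428 CPM.

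The remaining leading lowered transcripts were Gm15680, Lrtm1, Pip5k1b, a lipid kinase of phosphoinositide synthesis, and Acvr1c, a receptor of the activin family. Gm15680 overlaps Cdh8 on the same strand over 19259 bases, and Lrtm1 overlaps Cacna2d3 on the opposite strand. Several raised transcripts likewise overlap another raised transcript on the opposite strand, namely Rai14 with Gm10389, Ccn2 with Gm15270, Cntnap4 with Gm45904, Cdh18 with Gm49191, and Gm13561 with Dpp4. It is not stated in the sources used here whether reads were counted by strand, so the levels of the noncoding member of each pair are uncertain.

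Over all 11973 transcripts, Exc-ENT was nearest to Exc-CA1-Fras1 and farthest from Exc-DG. Against Exc-CA1-Fras1, 496 transcripts were at least 2-fold higher and 409 at least 2-fold lower in all 4 libraries, 905 in all, and the mean correlation of log2 levels was 0.900. The count was 912 against Exc-CA1-Camk2d, 953 against Exc-Cdh12, 1097 against Exc-Gpc6, 1234 against Exc-CA1-Galntl6, 1428 against Exc-CA3 and 1763 against Exc-DG, for which the mean correlation was 0.802. The first 3 counts lie close together, and this order carries no error.

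Open chromatin was described in the same way, with a floor of 2 CPM and an added 0.5 CPM. Cell types of these nuclei were assigned by transfer from the RNA clusters, so the 2 assays do not name the cells independently. Of 72144 peaks at 2 CPM or more in all 4 Exc-ENT libraries, 947 (1.31%) were at least 2-fold above every other excitatory type in each library. Raised peaks lay far from gene starts. Their median distance to the nearest start of a protein-coding gene was 108804 bases, against 31744 for the 72144 peaks and 56050 for all 300362 peaks, and 13 (1.37%) lay within 1 kb of a start, against 16.1% and 4.68%. Their median width was 552 bases, against 1003 and 534.

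Raised peaks took a larger share at raised transcripts than other open peaks did. Of the 947 raised peaks, 40 (4.22%) lay within a raised transcript's gene or 2 kb of it, against 0.821% of the 72144 peaks. At the genes of lowered transcripts there were 0 raised peaks of 947, which allows a share of up to 0.317%, against 0.304% of the 72144. Of the 78 raised transcripts 29 held a raised peak, as did 11 of the 20 leading transcripts, with 17 such peaks among them. The share of all genes that hold a raised peak was not counted, so these 2 counts have no background. The number of peaks at a gene also varied widely, from 133 at Etl4, of which 7 were raised, to 2 at Nxph3. The authors labelled the chromatin nuclei by matching RNA levels to chromatin counts over each gene and 2 kb upstream of it. The overlap is therefore not independent of the labels, and it was not tested.

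Cntnap4 carried 6 of these 17 peaks, all in introns (mm10, chr8:112570043-112882717, plus strand). The peak at chr8:112716610-112717495 had 11.96, 13.4, 14.1 and 12.5 CPM, against 1.26 CPM in Exc-CA1-Camk2d of B6 and 2.56 CPM in Exc-Cdh12 of D2. The peak at chr8:112728065-112728325 had 5.58, 5.75, 5.37 and 5.97 CPM against at most 0.93 CPM, and that at chr8:112588449-112589620 had 12.8, 14.0, 12.2 and 10.9 CPM against at most 2.75 CPM. The peak at chr8:112642446-112643790 had 11.0, 10.6, 9.94 and 7.88 CPM, against 3.14 and 2.30 CPM. All 4 libraries exceeded every other excitatory type at each of them, as the rule for raised peaks requires. The start of Cntnap4 was open in every excitatory type and did not meet the rule. It was at 27.3, 28.2, 29.4 and 34.5 CPM in Exc-ENT and 14.8 and 15.4 CPM in Exc-Gpc6, the next type.

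The central 300 bases of these 4 peaks, those with the highest weakest ratio at a leading transcript, are shown because they are the sequences in which Exc-ENT chromatin stood farthest from other types at the leading gene with the most raised peaks. The sequence is that of the mm10 genome, plus strand, and capitals mark a match to a motif that was searched. The second peak is only 261 bases wide, so its window runs past both edges.
Cntnap4 intron, chr8:112716903-112717202: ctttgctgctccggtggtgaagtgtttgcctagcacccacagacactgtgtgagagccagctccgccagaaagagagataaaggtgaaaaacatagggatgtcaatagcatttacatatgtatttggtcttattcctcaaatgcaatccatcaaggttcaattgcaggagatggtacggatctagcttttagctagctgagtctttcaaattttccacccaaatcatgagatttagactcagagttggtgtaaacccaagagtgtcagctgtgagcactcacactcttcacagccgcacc
Cntnap4 intron, chr8:112728046-112728345: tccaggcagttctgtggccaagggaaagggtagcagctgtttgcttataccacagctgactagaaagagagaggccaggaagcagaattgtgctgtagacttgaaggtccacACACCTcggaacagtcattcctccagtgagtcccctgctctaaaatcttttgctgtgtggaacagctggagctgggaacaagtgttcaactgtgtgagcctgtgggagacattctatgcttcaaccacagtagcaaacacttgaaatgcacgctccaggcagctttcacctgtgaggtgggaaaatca
Cntnap4 intron, chr8:112588885-112589184: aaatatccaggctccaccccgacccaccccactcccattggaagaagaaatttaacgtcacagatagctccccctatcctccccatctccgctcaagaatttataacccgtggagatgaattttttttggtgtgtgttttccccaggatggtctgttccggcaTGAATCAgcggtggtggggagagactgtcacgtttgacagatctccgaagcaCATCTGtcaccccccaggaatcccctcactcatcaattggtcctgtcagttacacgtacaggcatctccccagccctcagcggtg
Cntnap4 intron, chr8:112642969-112643268: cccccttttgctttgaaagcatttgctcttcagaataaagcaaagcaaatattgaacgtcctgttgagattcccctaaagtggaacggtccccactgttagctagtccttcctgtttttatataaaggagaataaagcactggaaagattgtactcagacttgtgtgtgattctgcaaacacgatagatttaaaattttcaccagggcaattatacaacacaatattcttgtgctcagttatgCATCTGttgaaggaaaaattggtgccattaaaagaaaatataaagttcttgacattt
6 motifs were searched on both strands, each counted by itself whether or not it overlapped another: TAATTA, a homeodomain core, CAGATG, an E-box of proneural factors, AGGTCA, a nuclear receptor core, TGANTCA, the AP-1 element, the frame of the MEF2 element, and AGGTGT, the T-box core. The first sequence held none. The second held AGGTGT, read as ACACCT on the plus strand, and the third held CAGATG, read as CATCTG, and TGANTCA. The fourth held CAGATG alone, again on the minus strand. In the central 300 bases of all 947 raised peaks CAGATG was found in 40.3%, against 27.8% of the 72144 peaks and 32.1% of all peaks. AGGTGT was found in 24.2%, against 15.0% and 13.9%. TAATTA was found in 5.17% against 6.02% and 9.03%, AGGTCA in 9.61% against 12.7% and 12.8%, TGANTCA in 9.40% against 11.2% and 14.5%, and the MEF2 frame in 4.86% against 4.52% and 4.87%. The median GC content was 44.7% in raised peaks, 49.3% in the 72144 and 46.3% in all, and its part in these shares was not tested. A match to letters is not a bound site.

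**Figure D3:**
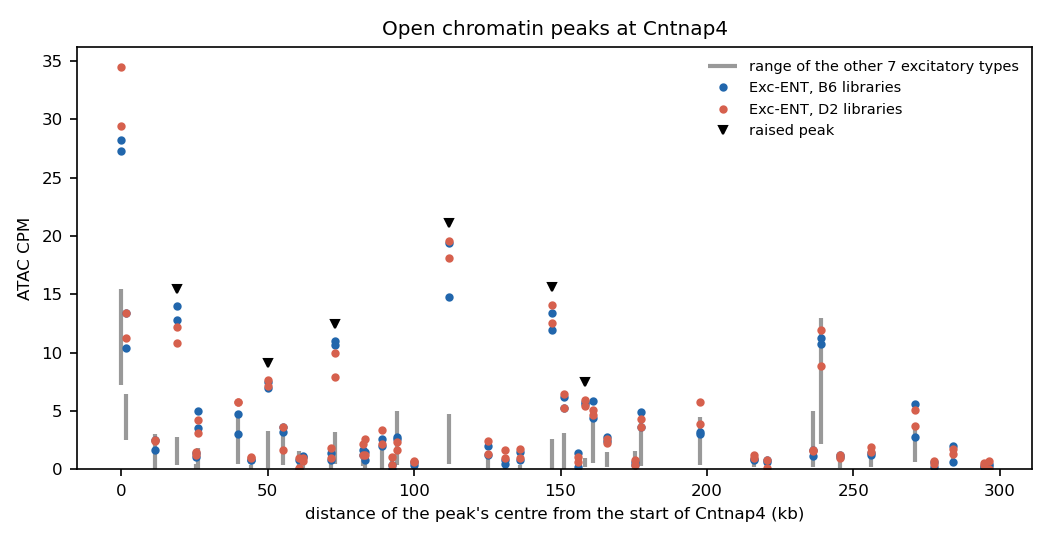
ATAC CPM of every peak in or within 2 kb of Cntnap4 against the distance of its centre from the gene's start in kb, with points for the 4 Exc-ENT libraries, grey bars for the range of the other 7 excitatory types over both strains, and triangles over the 6 raised peaks. The raised peaks lie between 19 and 158 kb from the start, and the start itself is open in all excitatory types.

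Of the other leading transcripts, Cdh18 held 2 raised peaks and Sntb1, Ccn2, Col8a1, Arhgap25, Olfm3, Papln, Lpar1, Nxph3 and Hs3st5 held 1 each. The intronic Arhgap25 peak at chr6:87522057-87523433 had 19.7, 20.9, 19.5 and 20.8 CPM, against 8.17 and 3.68 CPM in the next types. Raised peaks over the start itself were found for 2 of the 20 leading transcripts. At Ccn2 (chr10:24595177-24597524) the 4 libraries had 19.3, 17.7, 18.4 and 15.9 CPM against 7.54 and 7.44 CPM in Exc-Cdh12, and at Papln (chr12:83762867-83764820) they had 10.4, 10.2, 11.95 and 14.2 CPM against 2.73 CPM in B6 and 4.88 CPM in D2. At the starts of the rest no raised peak was found. Even so, except at Cdh18 and Gm10389, each Exc-ENT library was above every other excitatory type of its strain there. These differences were not 2-fold in each library. At the Rai14 start Exc-ENT had 20.95 to 24.36 CPM, against at most 11.3 CPM in B6 and 11.16 CPM in D2. The margin was narrow at Gm13561, with 25.32 to 27.21 CPM against at most 24.84 CPM in B6 and 26.04 CPM in D2. At Cdh18 the 2.27 to 4.12 CPM of Exc-ENT were below the 5.51 and 6.97 CPM of Exc-DG, at Gm10389 its 0.37 to 1.31 CPM were below 2.79 and 2.35 CPM, and at Sntb1 the 17.6 to 26.0 CPM of Exc-ENT stood against 9.94 and 8.52 CPM in Exc-DG, where Sntb1 RNA was at 3.14 CPM in B6.

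The 6 raised peaks with the highest weakest ratio were not at raised transcripts. The first, at chr18:26115085-26115702 in an intron of the gene AC161438.1, had 13.2, 11.5, 14.2 and 13.8 CPM against 0.53 and 0.70 CPM, a weakest ratio of 11.6. A further 4 were intergenic, at chr4:16681250-16681753, chr14:83363066-83363454, chr16:84111548-84111969 and chr19:15512273-15512717. They had 6.85 to 15.9 CPM in Exc-ENT and at most 0.84 CPM in the other excitatory types. Chromatin of types that are not excitatory was not compared. These 4 peaks lay 403363 to 1080303 bases from the nearest coding start. No link of these peaks to a gene was measured.

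How much of this profile differed between B6 and D2 was tested within Exc-ENT by edgeR's quasi-likelihood test, with Benjamini-Hochberg adjustment over all features tested and a threshold of 0.05. Each library pools about 2 animals, and the p-values measure the spread between these libraries, which may be technical in part. Of 14221 transcripts 2640 (18.6%) differed, 1137 higher (8.00%) and 1503 lower (10.6%) in D2. The balance turned to 2543 higher and 1796 lower when symbols counted in only 1 strain were admitted, and DESeq2 called 301 higher and 720 lower. Among the 78 raised transcripts 34 (43.6%) differed, against 19.6% of the 8958 symbols at 10 CPM in all 4 libraries. Of these, 12 were higher in D2 (15.4%, against 7.52%) and 22 lower (28.2%, against 12.1%). The excess over the background was not tested. The count of 22 became 13 without D2 library 3, that of 12 became 7 without B6 library 3, and DESeq2 called 3 higher and 11 lower. Of the 42 lowered transcripts that were tested, 2 were higher and 11 lower.

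Values below are CPM after TMM scaling. Galnt10, which starts O-linked glycosylation, had the largest change of the 34, at 63.2 and 62.2 CPM in B6 against 18.3 and 17.8 in D2 (log2 fold change -1.79, SE 0.15, adjusted p = 2.39e-09 by edgeR). All 7 other excitatory types also had less of it in D2, with log2 ratios of -1.70 to -0.68 between summed libraries after adding 1 CPM. Atp6ap1l was at 19.99 and 21.9 CPM in B6 against 57.4 and 58.1 in D2 (log2 fold change 1.46, SE 0.14, adjusted p = 5.52e-08 by edgeR), and the other types gave 0.81 to 2.07. Dlc1, a GTPase-activating protein, fell from 808 and 867 CPM in B6 to 486 and 553 CPM in D2 (log2 fold change -0.69, SE 0.08, adjusted p = 6.49e-07 by edgeR), where the other types ranged from -2.10 to 0.24. Olfm3 rose from 553 and 497 CPM to 789 and 724 CPM (log2 fold change 0.53, SE 0.08, adjusted p = 2.76e-05 by edgeR). The other excitatory types ranged from -1.97 to 1.58. Rorb rose from 236 and 228 CPM to 333 and 333 CPM (log2 fold change 0.52, adjusted p = 6.62e-05 by edgeR), with -0.25 to 1.14 in those types.

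Dpp4, a cell-surface peptidase, was at 79.5 and 78.2 CPM in B6 against 41.5 and 49.7 in D2 (log2 fold change -0.80, SE 0.12, adjusted p = 3.36e-05 by edgeR). The other excitatory types lay between -0.42 and 0.14. The overlapping Gm13561 was lower in D2 too, by a log2 fold change of -0.89, and reads of the 2 genes may not be told apart. Ccn2 was higher in D2, at 37.1 and 68.5 CPM against 29.8 and 30.3 CPM (log2 fold change 0.78, SE 0.19, adjusted p = 0.00531), and other types had -0.51 to 0.48 at levels near 1 CPM. The change rested on D2 library 3, without which it was 0.30 and no longer passed, and it did not pass by DESeq2. Alk, a receptor tyrosine kinase, was lower in D2, at 44.7 and 49.7 CPM against 80.2 and 74.8 CPM. The direction was the same in all 7 other excitatory types for 10 of the 34 transcripts. Whether Exc-ENT differs from other types in its strain effect was not tested.

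**Figure D4:**
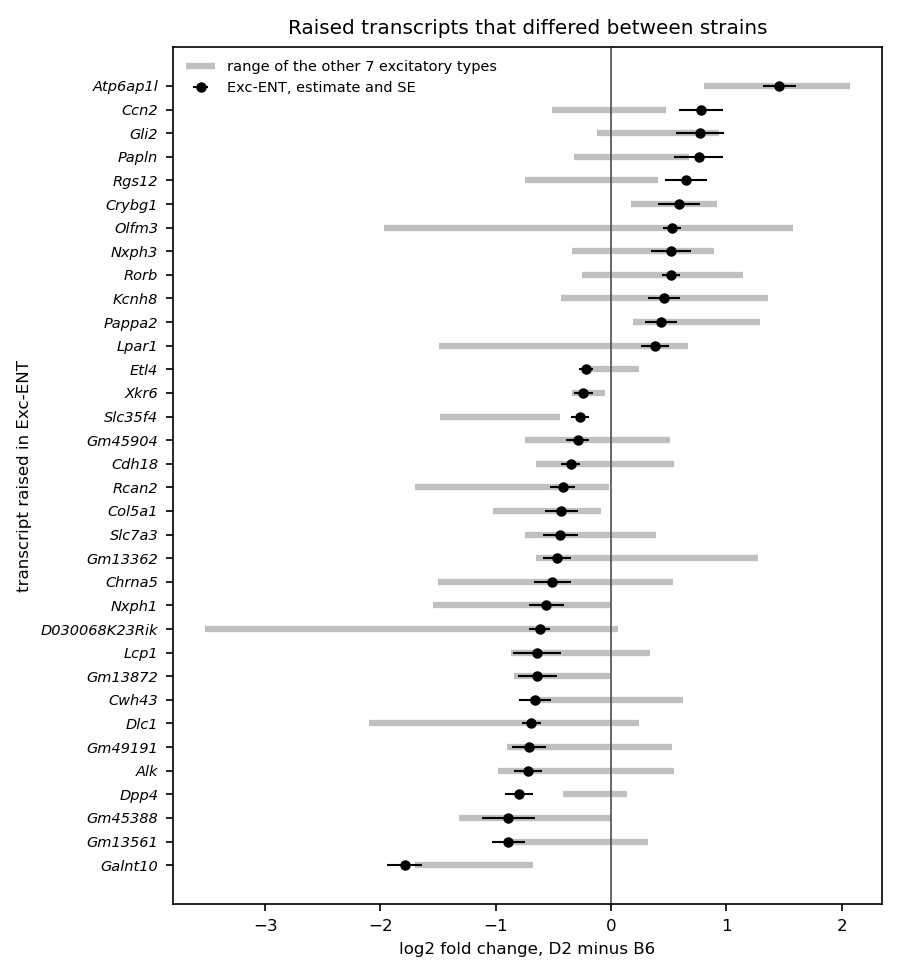
Log2 fold change between D2 and B6 for the 34 raised transcripts that passed the strain test, with a point and its standard error for Exc-ENT and a grey bar for the range of the other 7 excitatory types, from summed libraries with no error. Galnt10 at -1.79 and Atp6ap1l at 1.46 are the outermost points, and 22 points lie left of 0.

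Peaks were tested in the same way. Of 252199 peaks 3216 (1.28%) differed, 1553 higher (0.616%) and 1663 lower (0.659%) in D2. Of the 947 raised peaks 15 were higher and 16 lower. Both directions together are a larger share than the 1.70% of the 72144 peaks that differed in either direction. This excess was not tested. At the 34 raised transcripts that differed, 15 of 810 peaks tested (1.85%) differed too. These 15 peaks lay at 7 of the transcripts, and each had changed in the direction of its transcript. Galnt10 held 6 of them, all intronic and all lower in D2. The one with the smallest adjusted p, at chr11:57673849-57674537, had 19.0 and 18.5 CPM in B6 and 7.78 and 8.78 CPM in D2 (log2 fold change -1.17, SE 0.18, adjusted p = 6.02e-08 by edgeR). Dlc1 held 4, also lower, of which chr8:36879173-36880341 had 20.2 and 21.4 CPM against 14.3 and 9.74 CPM (adjusted p = 0.000115 by edgeR). At Olfm3 the intronic peak at chr3:114919682-114920391 was both raised in Exc-ENT and higher in D2, with 7.08 and 5.01 CPM in B6 and 10.8 and 12.5 CPM in D2 (log2 fold change 1.00, SE 0.22, adjusted p = 0.00117 by edgeR). Etl4, Slc35f4, Pappa2 and Crybg1 held 1 each.

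The 5 transcripts with the largest strain change in each direction included several that were nearly absent in 1 strain. Apart from Col11a1 and Gm47428, all of them changed in the same direction in all 7 other excitatory types. The log2 ratios of those types were 5.98 to 7.2 for Gm12160 and 3.64 to 5.55 for Glp1r. They were -5.22 to -4.7 for Ndor1 and -8.1 to -7.22 for mt-Co2. Gm12160 had 0 counts in B6 and 200.4 and 185 CPM in D2, at least 612-fold higher when B6 is given 3 counts over both libraries. Glp1r, the receptor of glucagon-like peptide 1, had 2 counts in B6 and 182 in D2, a ratio of 118 with a 95% counting interval of 32.3 to 985 (log2 fold change 6.61, adjusted p = 1.12e-10 by edgeR). Col11a1, a fibrillar collagen chain, was at 9.99 and 3.32 CPM in B6 against 119 and 100.3 in D2 (log2 fold change 4.05, SE 0.21, adjusted p = 8.62e-13 by edgeR), and the other excitatory types ranged from -1.95 to 2.03. Gm20324 and Cyp2j11 rose by 4.76 and 4.32 on the log2 scale. Ndor1, Gm47428 and Gm17167 had 0 counts in D2 and were at least 76.9-fold, 56.9-fold and 48.7-fold lower there. mt-Nd3 and mt-Co2 fell by 8.38 and 8.37 on the log2 scale, 8 of 13 mitochondrial transcripts were lower in D2 and none higher, and their summed level was 2071 and 3432 CPM in B6 and 987 and 797 CPM in D2. The D2 reads were aligned to a reference in which only single bases had been replaced, and its part in near-absent features was not tested.

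Near-absent peaks included chr12:22030207-22031104, with 0 counts in B6 and 7.51 and 7.09 CPM in D2 (at least 31.3-fold higher), and chr6:3200811-3201594, with 59.1 and 47.4 CPM in B6 and 0 counts in D2 (at least 272-fold lower). The intergenic peak at chr11:19380043-19380367, 361220 bases from the start of Meis1, had 1 count in B6 and 121 in D2, at 9.42 and 6.25 CPM, a ratio of 99.6 with a 95% counting interval of 17.5 to 3965. The other excitatory types had log2 ratios of -0.26 to 0.56 there. A Sfi1 intron peak at chr11:3159541-3159856 had a ratio of 94.6, with an interval of 25.9 to 786. Peaks over Gm41253 (chr14:120804538-120806096) and Gm8113 (chr14:43924700-43925692) had 0 counts in D2 and were at least 41.3-fold and 31.6-fold lower. These intervals and bounds cover counting error only. At all of these peaks but the one near Meis1, the other excitatory types changed in the same direction. Their log2 ratios were 2.4 to 3.84 at the chr12 peak, 4.54 to 5.42 at the Sfi1 peak and -6.1 to -5.53 at the chr6 peak. Over Gm41253 and Gm8113 they were -3.16 to -2.65 and -3.55 to -2.86.

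Neuronal gene groups are given next, with examples picked after their values were seen, each list read against 8.00% higher and 10.6% lower over all transcripts, whose median log2 fold change was 0.01. Of 7 metabotropic glutamate receptors 5 were lower in D2 and none higher, with a median of -0.29. Grm4, a presynaptic group III receptor, had the largest of these changes, at -0.91 (SE 0.17, adjusted p = 0.000379 by edgeR). Of 34 potassium and HCN channel genes 10 were lower and 2 higher. Kcnip4, an auxiliary subunit of A-type potassium channels, was at 2850 and 2637 CPM in B6 against 1158 and 1140 in D2 before TMM scaling (log2 fold change -1.35, SE 0.07, adjusted p = 3.74e-13 by edgeR), and the other excitatory types gave -0.69 to -0.07. Kcnip3, of the same family, fell by 0.87 on the log2 scale. Of 11 GABA-A subunits 4 were lower, of 16 ionotropic glutamate receptors 5 were lower and 1 higher, and of 30 synaptic organizers 7 were lower and 1 higher. Of 40 transcription factors 9 were lower and 6 higher, among them Foxp1, which fell by 0.77, and Lmo4 and Neurod6, which rose by 0.74 and 0.76. Neurod6 was also higher in D2 in each other excitatory type, with 103 CPM in B6 and 192 CPM in D2 in Exc-Gpc6. Cadherins and protocadherins were split, with 7 higher and 7 lower of 21, and axon guidance genes gave 3 higher and 8 lower of 37. DESeq2 again called 5 metabotropic and 5 ionotropic glutamate receptors lower. It called fewer members of the other lists, such as 4 higher and 4 lower for transcription factors and 0 higher and 6 lower for potassium and HCN channels.

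Oligodendrocyte markers moved with strain in the same libraries. Of the 5 markers tested 4 were lower in D2 by 0.73 to 1.89 on the log2 scale, Mbp and Mobp among them, and none of them was raised or lowered in Exc-ENT. Their range over the other excitatory types was also below 0, from -0.67 to -0.33 for Mbp, which encodes a structural protein of myelin. The summed level of the list in each library is given above with that of oligodendrocytes, and its part in the other strain differences was not tested.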

How the data were processed

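Counts per cell type and library were deposited as 1 table of RNA counts per gene symbol and 1 of ATAC counts per peak, with numbers of nuclei. Per the study's methods, the authors aligned RNA reads with Cell Ranger 6.0.2, introns retained, and ATAC reads with Cell Ranger ATAC 2.0.0, to mm10 for B6 and to mm10 with D2 single-base variants for D2. They removed doublets, clustered RNA nuclei in Seurat 4.0.5, transferred the labels to ATAC nuclei, and merged MACS peaks called per sample. The GENCODE release is not given in the sources used here. Barcodes of single nuclei and the 16 methylation libraries were not used here.

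Symbols and peaks with counts in both strains were kept (24634 of 33902 and 300362 of 300819), since the strains' gene lists differ. The tables number libraries 2 and 3 and the sample labels 1 and 2, so columns were matched to strains only. A further 16 RNA columns, of types neither excitatory nor non-neuronal, and 28 ATAC columns, of types that are not excitatory, were not used. Strain tests used edgeR 4.0.16 (R 4.3.3) with TMM on the 4 Exc-ENT columns, after filterByExpr (RNA) or a minimum of 10 counts (ATAC), and were tested on simulated data. Tables were joined with Python 3.11.15, pandas 2.3.3, numpy 2.4.6 and scipy 1.17.1.

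Members and gene lists were chosen with earlier results of these data known. Named are the 20 raised and 10 lowered transcripts with the most extreme weakest ratio, list members raised or lowered, raised transcripts that differed between strains, the 5 largest strain changes in each direction at a mean of 10 CPM or more, raised peaks at the 20 and the 6 with the highest weakest ratio, and 3 strain peaks in each direction. A few items that this rule names are not reported here. Gene positions, peak annotation and sequences are those of GRCm38 (mm10). Alternatives were DESeq2 1.42.0, RLE scaling, other filters, folds and pseudocounts, a block on library number, and leaving out each library.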

Additional observations from a re-analysis of the deposited data

How the results depend on the processing

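Exc-ENT was 11.73% of excitatory nuclei in RNA and 9.279% in chromatin, against 6.467% and 7.973% of all nuclei. A fold of 4 left 25 raised and 9 lowered transcripts and 121 raised peaks. Against the mean of the other excitatory types there were 280 raised and 471 lowered transcripts and 4370 raised peaks, and a floor of 5 CPM left 536 raised peaks. Without each library in turn, raised transcripts numbered 80 to 84, lowered ones 44 to 47 and raised peaks 1038 to 1155, since fewer libraries had to meet the rule. For strain differences DESeq2 called 1021 transcripts, 301 higher and 720 lower in D2, of which 1015 were among the 2640 called by edgeR, and 735 peaks, all among the 3216. With symbols counted in only 1 strain admitted, 4339 transcripts were called, 2543 higher and 1796 lower. Leave-one-out counts ran from 1781 to 2416 transcripts and from 1397 to 2220 peaks. The lowest peak counts were 1397 without B6 library 3 and 1791 without D2 library 3. RLE scaling gave 2645 transcripts and 3238 peaks, and no filter 2861 and 3115. The cause of these moves was not tested. In these runs no strain change of a named transcript or peak changed sign, but the balance of calls did: the excess of lower calls became an excess of higher ones for transcripts where symbols of 1 strain were admitted, and for peaks (1117 higher, 1096 lower) without D2 library 2. Over all these settings, the strain changes of named transcripts and peaks stayed on their side of the threshold 392 times and lost significance 58 times.

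Libraries of the 2 strains share only a number. Deviations of same-numbered libraries from their strain mean correlated at -0.0717 in RNA and -0.0251 in chromatin, and with library number as a replicate block 2724 transcripts (1221 higher, 1503 lower) and 2996 peaks were called, 2553 and 2953 of them shared with the fit without the block.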
